A study of Oryctolagus cuniculus with 27 samples.

Results

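The collagens are a family of extracellular matrix proteins whose chains wind into a triple helix. In this study 43 collagen genes were present among the 31346 genes listed, taken as every gene whose name follows the pattern COL, a number, A and a number. By the kind of structure their products form, they were 10 fibrillar collagens, 5 microfibril collagens of type VI, 6 basement membrane collagens of type IV, 2 multiplexins, 10 FACITs (fibril-associated collagens with interrupted triple helices), 3 network collagens, 4 transmembrane collagens, 1 anchoring fibril collagen and 2 others. COL5A1 and COL6A4 were not analysed here. After a filter on low counts, 38 of the 43 genes could be tested in valve, 36 in aorta and 32 in myocardium, and the rest are described by their levels.

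Fibrillar collagens give tissues tensile strength, and types I and III make up most of the fibrous layer of the aortic valve cusp. Type IV collagens form the sheet of the basement membrane under endothelium and around muscle cells, type VI forms beaded microfibrils around cells, and FACITs sit on the surface of fibrils and bridge them to other matrix. Collagen chains are hydroxylated and folded in the endoplasmic reticulum, trimmed outside the cell and crosslinked by lysyl oxidases. Thickening and stiffening of the cusps by matrix is a known feature of aortic valve disease, and a diet of cholesterol with vitamin D2 is used in rabbits to bring on early changes of that disease.

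The tissues came from wild-type male New Zealand rabbits and were measured by bulk RNA sequencing of 27 libraries. The diet groups ate chow with 1% cholesterol plus, for each kg and day, 3500 IU of ergocalciferol (vitamin D2), and the control groups ate normal chow. Aortic valve libraries, each from 1 cusp dissected free of fat, came from animals on the diet for 2, 4 and 7 weeks (n = 4 each) and from controls (n = 4). Ascending aorta was taken from diet (n = 2) and control (n = 3) animals, and left ventricular myocardium from diet (n = 3) and control (n = 3) animals. The labels give no duration for aorta or myocardium. All 3 diet myocardium libraries came from 7-week valve animals, 1 diet aorta came from a 2-week valve animal, and 2 control myocardium libraries came from control valve animals. How long the control rabbits were kept is unclear: by the design text control valves were collected at 2 and 4 weeks, but by their titles replicates 1, 2 and 3 belong to 7 weeks and replicate 4 to 2 weeks. Library names number the 7-week valves apart from the other valves, and whether they had a sequencing run of their own is not given, so run and week cannot be told apart. Some of these numbers occur both in a valve name and in an aorta or myocardium name. Whether the tissues shared a run is not given, so run and tissue cannot be told apart either.

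Library totals ran from 8.46 M to 20.0 M expected counts in valve, 11.5 M to 16.1 M in aorta and 13.95 M to 17.3 M in myocardium. Levels are given as CPM, counts scaled to a common library total, which carry no correction for transcript length, so levels are compared between groups and not between genes. Listed cardiomyocyte markers (9 of 11 in the tables) ranged from 0.774% to 3.80% of counts in the controls and from 0.0987% to 0.564%, 0.215% to 2.44% and 0.864% to 4.01% after 2, 4 and 7 weeks of diet. Smooth muscle markers (8 of 8) took 2.04% to 3.65%, 2.95% to 4.56%, 1.43% to 2.89% and 0.888% to 1.52% of counts in the same 4 groups. Macrophage markers (10 of 10) averaged 0.0130%, 0.0122%, 0.0700% and 0.0644% of counts in these groups. Markers of atrial muscle (4 of 4) took at most 0.00137% of counts in control valves but up to 0.758% at 4 weeks and 0.481% at 7 weeks. In the marker lists for cardiomyocytes, smooth muscle and macrophages no gene was at 0 in every library of a valve group. Markers of fibroblasts and valve interstitial cells (8 of 9) were called in neither direction at any week against control, and their mean share lay between 0.884% and 1.12% in the 4 valve groups. In bulk tissue, fewer cells of a type and less RNA per cell cannot be told apart.

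Collagen genes together took 1.25% ± 0.32 of the counts of control valves. On the diet this share was 2.22% ± 0.47 after 2 weeks, 2.40% ± 0.77 after 4 and 1.90% ± 0.81 after 7 (SD, n = 4 each). The lowest control valve was at 0.941% and the highest at 1.68%, so that every 2-week valve, from 1.83% upwards, lay above the control range. At 4 weeks the lowest valve had 1.5%, and at 7 weeks replicate 2 had 0.805%, below every control. That 7-week library was the shallowest of the valve set, carried 4.01% cardiomyocyte marker counts and held the lowest level of its group for most collagens, COL1A1, COL3A1 and COL6A1 among them. In diet aortas collagens took 1.72% ± 0.046 of counts (n = 2), against 1.35% ± 0.29 in control aortas (n = 3). In diet myocardium they took 0.239% ± 0.068, against 0.429% ± 0.023 in control myocardium (n = 3 each), and the highest diet myocardium, at 0.315%, was below the lowest control, at 0.409%. The chains COL1A1, COL1A2, COL3A1, COL6A1, COL6A2 and COL6A3 together gave 71.2% of all collagen counts in control valves and 76.2% at 7 weeks.

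**Figure D1:**
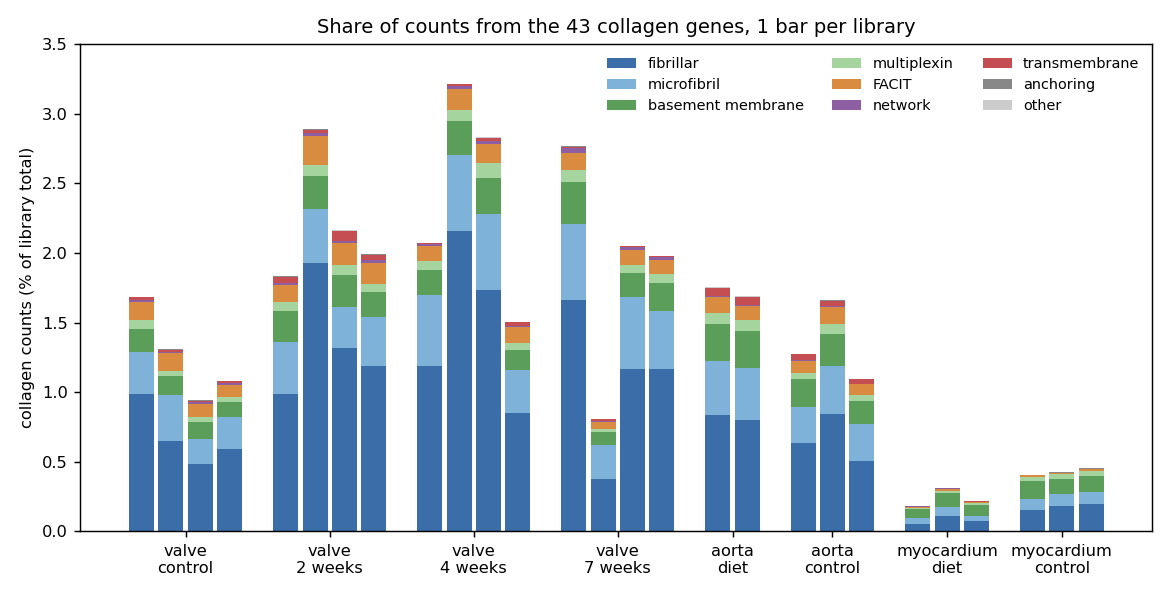
Share of each library's counts (y axis, % of the library total) that came from the 43 collagen genes, 1 bar per library, coloured by collagen class and grouped along the x axis by tissue, week and diet. Valve bars on the diet run from 0.805% to 3.22%, against 0.941% to 1.68% in control valves, while diet myocardium, at 0.184% to 0.315%, lies below control myocardium, at 0.409% to 0.454%.

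Differences between groups were tested with edgeR's quasi-likelihood test over all genes that passed the filter, and a gene was called when its Benjamini-Hochberg adjusted p fell below 0.05; adjusted p-values below are from this test. Changes are log2 values with their standard error, and the labels do not say more of the replicates than that they are separate libraries of a group, which the animal numbers tie to separate rabbits.

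The tissues differed most. In control animals 22 of 38 collagens were higher and 7 lower in valve than in myocardium, a comparison in which 46% of all genes tested were called (23.4% higher, 22.5% lower). Of 8 FACITs tested 7 were higher in valve and 0 lower, all 3 network collagens were higher, and of 10 fibrillar collagens 5 were higher and 2 lower. The median difference over the 38 collagens was 1.55, with COL10A1 at its fit or at its bound, against -0.0016 over all genes. Fibroblast and valve interstitial markers were higher in valve for 8 of 8 genes in the same comparison, smooth muscle markers for 7 of 8, and cardiomyocyte markers were lower for 9 of 9. Their part in the collagen differences was not tested.

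Among the fibrillar collagens, the type I chains COL1A1 and COL1A2, which build the main fibrils of valve, bone and tendon, were higher in valve. COL1A1 had 2785, 1608, 1118 and 1589 CPM in control valves, against 384, 443 and 397 CPM in control myocardium. The ranges did not overlap, and the difference was 1.72 ± 0.32 (adjusted p = 0.00177). COL1A2 differed by 2.09 ± 0.32 (adjusted p = 0.000682). COL3A1, the type III chain of extensible tissues, had 3803, 2817, 2213 and 2514 CPM in control valves, against 709, 907 and 911 CPM in control myocardium, a difference of 1.37 ± 0.27 (adjusted p = 0.00242). COL5A2, a type V chain that sits within type I fibrils, differed by 1.53 ± 0.23 (adjusted p = 0.000597). COL5A3, another type V chain, went the other way: it had 49.4, 55.0, 44.6 and 40.8 CPM in control valves, against 77.8, 69.1 and 107 CPM in control myocardium, with no overlap (-1.21 ± 0.22, adjusted p = 0.00177). COL27A1, a fibrillar chain of cartilage matrix, was lower in valve as well (-1.15 ± 0.28, adjusted p = 0.00698). COL2A1, the cartilage type II chain, had 14.7, 1.79, 8.22 and 1.62 CPM in control valves, against 0.287, 0.0671 and 0 CPM in control myocardium (5.41 ± 1.45, adjusted p = 0.0118). This call was lost with the animal as a random block (4.86, adjusted p = 0.126), a fit made in limma and so by another test. The same fit also lost the COL2A1 call between control aorta and control myocardium, which share no animal. Which of the 2 changes took the call was not tested. COL11A1, a minor chain of cartilage fibrils, differed by 1.52 ± 0.84 and was not called (adjusted p = 0.163).

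Type IV collagens did not move as 1 block between valve and myocardium: 2 were higher and 2 lower among the 6. COL4A5 and COL4A6, chains found with smooth muscle basement membrane, were the higher ones. COL4A6 had 132, 209, 126 and 90.7 CPM in control valves, against 0.645, 1.21 and 1.88 CPM in control myocardium (6.40 ± 0.44, adjusted p = 6.1e-06). COL4A5 differed by 3.51 ± 0.26 (adjusted p = 9.3e-06). COL4A1 and COL4A2 are the chains of nearly all basement membranes. COL4A1 was lower in valve by a small margin, with 781, 566, 551 and 499 CPM in control valves, against 774, 645 and 642 CPM in control myocardium (-0.59 ± 0.22, adjusted p = 0.0446). The ranges of COL4A1 overlapped, and leaving out valve replicate 2, 3 or 4 or myocardium replicate 1 or 2 took its adjusted p to between 0.0545 and 0.133. COL4A2 was not called (-0.20 ± 0.18, adjusted p = 0.371), and COL4A4, best known from the kidney glomerulus, was lower in valve (-1.46 ± 0.37, adjusted p = 0.00923). Of the multiplexins, which lie beside basement membranes, COL18A1, the source of endostatin, was higher in valve (2.37 ± 0.42, adjusted p = 0.00144), while COL15A1 was not called (-0.36 ± 0.24, adjusted p = 0.238).

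The microfibril chains COL6A1 and COL6A2 were higher in valve than in myocardium by 1.34 ± 0.23 (adjusted p = 0.00129) and 1.82 ± 0.23 (adjusted p = 0.000249). COL6A3, the large chain of the same microfibril, was not called (-0.19 ± 0.24, adjusted p = 0.544), with 359, 420, 259 and 203 CPM in control valves, against 267, 297 and 234 CPM in control myocardium. COL6A6 was lower in valve (-1.68 ± 0.31, adjusted p = 0.00169). The FACIT with the largest difference was COL12A1, which binds type I fibrils in tendon and other loaded tissue. It had 91.2, 64.2, 88.4 and 37.6 CPM in control valves, against 2.15, 3.69 and 1.82 CPM in control myocardium (4.39 ± 0.54, adjusted p = 0.000185). COL14A1, its close relative on fibril surfaces, differed by 3.5 ± 0.29 (adjusted p = 1.6e-05), COL21A1 by 3.59 ± 0.26 (adjusted p = 7.6e-06) and COL9A2, a type IX chain, by 4.15 ± 0.35 (adjusted p = 1.8e-05). COL16A1 was higher in valve too, by 2.48 ± 0.25 (adjusted p = 5.8e-05).

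The network collagens COL8A1 and COL8A2 form the hexagonal lattice of vessel subendothelium and cornea. COL8A2 had 30.2, 62.8, 35.9 and 31.5 CPM in control valves, against 1.00, 2.01 and 1.82 CPM in control myocardium (4.23 ± 0.30, adjusted p = 7.7e-06). COL8A1 differed by 1.56 ± 0.44 (adjusted p = 0.0155), and without myocardium replicate 2 its adjusted p was 0.0506. COL10A1, the type X chain of hypertrophic cartilage, was low in valve, with 1.41 to 3.63 CPM, and had no count in control myocardium. Set against a floor of 3 counts over the 3 myocardium libraries, it was at least 32.2-fold higher in valve (adjusted p = 0.00234). COL13A1, a transmembrane collagen at cell junctions, differed by 5.94 ± 0.51 (adjusted p = 2.2e-05). COL7A1, the chain of anchoring fibrils, was lower in valve (-1.35 ± 0.38, adjusted p = 0.0153).

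Against control aorta, 5 of 38 collagens were higher and 7 lower in control valve, where 22.2% of all genes were called (13% higher, 9.19% lower). The higher ones were COL5A3, COL6A6, COL8A1, COL22A1 and COL23A1, and the lower ones COL4A1, COL4A2, COL7A1, COL9A2, COL13A1, COL18A1 and COL21A1. Smooth muscle markers were lower in valve for 4 of 8 genes and higher for 1, and cardiomyocyte markers were higher for 9 of 9; the part of either in these differences was not tested. COL8A1 had 139, 63.0, 58.3 and 67.4 CPM in control valves, against 30.1, 22.2 and 6.89 CPM in control aortas (1.92 ± 0.45, adjusted p = 0.0145). COL5A3 was likewise above every control aorta, where it had 16.4, 7.20 and 10.6 CPM (1.92 ± 0.24, adjusted p = 0.00116). COL13A1 had 144, 118, 93.4 and 128 CPM in control valves, against 394, 348 and 304 CPM in control aortas, with no overlap (-1.66 ± 0.38, adjusted p = 0.0121). COL7A1 differed by -2.10 ± 0.38 (adjusted p = 0.00521), COL6A6 by 2.24 ± 0.36 (adjusted p = 0.003) and COL22A1, a FACIT of tissue junctions, by 3.88 ± 0.84 (adjusted p = 0.01).

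The abundant fibrillar chains were not called between valve and aorta. COL1A1 differed by 0.36 ± 0.30 (adjusted p = 0.423), COL1A2 by 0.17 ± 0.30 (adjusted p = 0.725), COL3A1 by -0.47 ± 0.26 (adjusted p = 0.215) and COL5A2 by -0.17 ± 0.22 (adjusted p = 0.605). The basement membrane chains COL4A1 (-0.69 ± 0.22, adjusted p = 0.0427) and COL4A2 (-0.78 ± 0.18, adjusted p = 0.0121) were lower in valve. COL18A1 was lower in valve too (-1.3 ± 0.38, adjusted p = 0.0346). Several calls between valve and aorta were lost when a single library was left out, with the direction kept. For COL4A1 the adjusted p was 0.0589 to 0.148 on leaving out any library except valve replicate 1, and for COL18A1 0.0515 to 0.149 on the same terms. COL21A1 (-0.70 ± 0.22, adjusted p = 0.042) was lost without any library except aorta replicate 3 (0.0543 to 0.195), and its difference was -0.44 without aorta replicate 2. COL9A2 (-1.01 ± 0.26, adjusted p = 0.0202) was lost without valve replicate 1, 3 or 4 or aorta replicate 3 (0.0528 to 0.0847), and COL4A2 without aorta replicate 2 (0.0504). Of the higher collagens, COL23A1 (0.63, adjusted p = 0.0227) was lost without valve replicate 4 or aorta replicate 1 or 2. The count fell to 7 without valve replicate 4 or aorta replicate 2. COL6A1 (-0.39 ± 0.22, adjusted p = 0.234), COL6A2 (-0.40 ± 0.22, adjusted p = 0.21), COL6A3 (0.45 ± 0.25, adjusted p = 0.212), COL15A1 (-0.18 ± 0.24, adjusted p = 0.614) and COL10A1 (0.24 ± 0.66, adjusted p = 0.83) were not called either. The same held for COL2A1 (-0.74 ± 0.94, adjusted p = 0.605), COL11A1 (1.48 ± 0.84, adjusted p = 0.228), COL12A1 (1.15 ± 0.44, adjusted p = 0.088), COL14A1 (0.12 ± 0.25, adjusted p = 0.767) and COL8A2 (0.15 ± 0.24, adjusted p = 0.693).

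**Figure D2:**
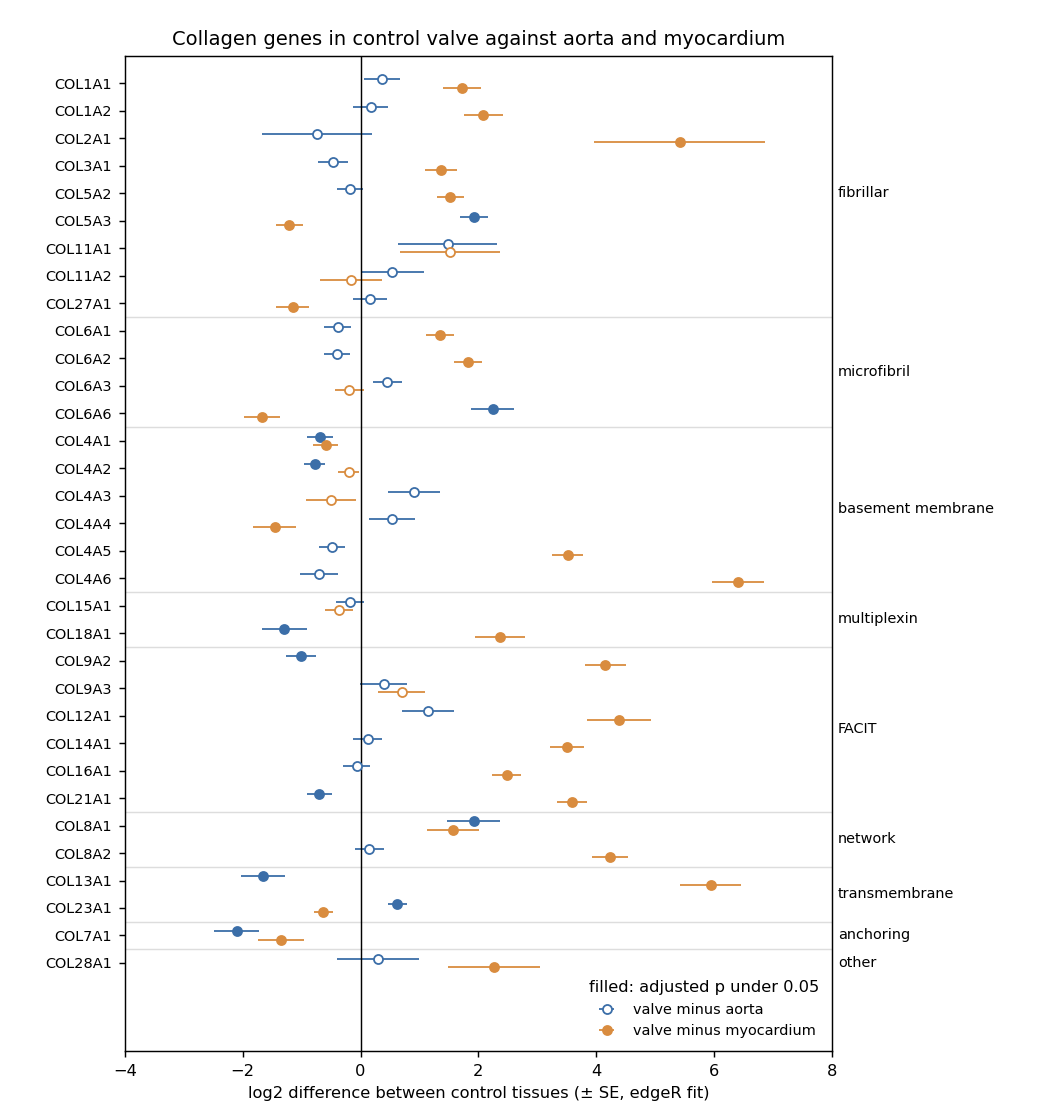
Log2 difference of control valve minus control aorta (blue) and control valve minus control myocardium (orange) for the 33 collagens of at least 5 CPM in some group, with standard errors; filled points have an adjusted p under 0.05. FACIT and network collagens lie to the right for myocardium, up to 4.39 for COL12A1, while COL1A1, COL1A2 and COL3A1 lie between -0.47 and 0.36 for aorta.

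Between control aorta and control myocardium 20 collagens were higher and 7 lower, where 52.8% of all genes were called (27% higher, 25.8% lower). COL13A1 had the largest fitted difference (7.60). With COL10A1, which had no count in control myocardium, set aside, COL4A6 followed (7.11 ± 0.46, adjusted p = 2.3e-06). COL5A3 (-3.13) and COL6A6 (-3.92) were lower in aorta than in myocardium, so these 2 chains were lowest in control aorta, higher in control valve and highest in control myocardium.

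In valves on the diet, mean levels of fibrillar and type VI collagens were above control at each week, except COL5A3, COL24A1 and COL6A5 at 2 weeks and COL6A5 and COL6A6 at 7 weeks, but few single genes passed the test. At 2 weeks 0 of 38 collagens were called, where 0.025% of all genes were called (0.0188% higher, 0.00626% lower). At an unadjusted p under 0.05 there were 13 of the 38 collagens and 2622 genes, 16.4% of all genes tested. DESeq2 called 3 collagens, COL13A1, COL3A1 and COL4A2, and 6.04% of all genes. At 4 weeks 0 of 38 were called, where 2% of all genes were called (1.94% higher, 0.0563% lower). At an unadjusted p under 0.05 there were 11 of the 38 collagens and 2040 genes, 12.8% of all genes tested. DESeq2 called 3 collagens, COL1A1, COL6A1 and COL6A2, and 4.83% of all genes. At 7 weeks COL6A1 was higher and COL21A1 lower, where 5.2% of all genes were called higher and 2.6% lower, 7.79% in all. The median change over the 38 collagens was 0.51, 0.43 and 0.31 at 2, 4 and 7 weeks, against 0.018, -0.029 and -0.0079 over all genes.

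At 2 weeks 5 collagens had every diet valve above every control, as did 4.43% of all genes, and 0 had every one below, as did 5.6%. At 4 weeks the count above was 4 (6.29% of all genes), and COL23A1, a transmembrane collagen, was the 1 below (0.626%). At 7 weeks the count above was 0 (8.48%), and COL13A1 was the 1 below (2.84%).

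The fibrillar class had a positive fitted change for 8 of 10 members at 2 weeks (median 0.73), 10 of 10 at 4 weeks (median 0.79) and 10 of 10 at 7 weeks (median 0.60), with 0 called at any week. COL1A1 had 1118 to 2785 CPM in control valves. In valves on the diet it had 2357, 5102, 2532 and 3242 CPM at 2 weeks, 4369, 7312, 5519 and 2459 CPM at 4 weeks, and 4869, 1235, 3591 and 3928 CPM at 7 weeks. Each week overlapped the control range. At 2 and 4 weeks this was only through control replicate 1, while 7-week replicate 2 lay below control replicates 2 and 4 as well. The change of COL1A1 was 0.86 ± 0.36 at 2 weeks (adjusted p = 0.24), 1.3 ± 0.37 at 4 weeks (adjusted p = 0.0856) and 0.87 ± 0.36 at 7 weeks (adjusted p = 0.144). Without 4-week replicate 4, COL1A1, COL6A1 and COL6A2 were called at 4 weeks (COL1A1 1.51, adjusted p = 0.0244), and without control replicate 1 COL1A1 alone was called (1.56, adjusted p = 0.0469).

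COL3A1 had 4785, 8714, 6956 and 4973 CPM at 2 weeks, against 3803, 2817, 2213 and 2514 CPM in control valves. The 2-week valves were all above the control range, and the change of 1.14 ± 0.34 was not called (adjusted p = 0.107). At 4 weeks it had 3725, 7907, 6384 and 3499 CPM (0.75 ± 0.34, adjusted p = 0.367), and at 7 weeks 6263, 1265, 4075 and 4130 CPM (0.39 ± 0.34, adjusted p = 0.497). Of the other abundant fibrillar chains, COL1A2 gave 0.85 ± 0.35, 0.92 ± 0.35 and 0.66 ± 0.35 at 2, 4 and 7 weeks (adjusted p = 0.237, 0.245 and 0.25). COL5A2 gave 0.84 ± 0.30, 0.74 ± 0.30 and 0.60 ± 0.30 (adjusted p = 0.171, 0.292 and 0.223). The cartilage chain COL2A1 had 100, 47.9, 36.7 and 33.4 CPM at 4 weeks, above every control valve, where it had 1.62 to 14.7 CPM. Its libraries spread widely, and the changes of 1.71 ± 0.97, 2.91 ± 1.00 and 1.59 ± 0.97 at 2, 4 and 7 weeks were not called (adjusted p = 0.416, 0.172 and 0.315). Chondrocyte markers took 0.0233% to 0.0334% of counts at 2 weeks, 0.0236% to 0.0331% at 4 weeks and 0.0137% to 0.0302% at 7 weeks, against 0.0106% to 0.0191% in control valves, with 0, 0 and 1 of 5 tested called higher. Of the 6 markers measured, 1 was at 0 in every 2-week library, and their part in the COL2A1 values was not tested. COL11A1 gave 0.61 ± 0.50, 0.83 ± 0.50 and 0.84 ± 0.50 (adjusted p = 0.614, 0.554 and 0.306).

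COL6A1 was the collagen called higher at 7 weeks. It had 1711, 872, 1783 and 1458 CPM at 7 weeks, against 924, 936, 499 and 689 CPM in control valves. Replicate 2 lay within the controls and the other 3 libraries above them, and the change was 0.90 ± 0.22 (adjusted p = 0.0233). Leaving out 7-week replicate 3 or 4 or control replicate 3 or 4 took the adjusted p to between 0.0575 and 0.0727. At 2 weeks COL6A1 had 1141, 1255, 1011 and 1122 CPM (0.56 ± 0.22, adjusted p = 0.195) and at 4 weeks 1549, 1772, 1747 and 890 CPM (0.81 ± 0.22, adjusted p = 0.0707). COL6A2 gave 0.43 ± 0.21, 0.63 ± 0.21 and 0.50 ± 0.21 at 2, 4 and 7 weeks (adjusted p = 0.329, 0.156 and 0.146). COL6A3 gave -0.03 ± 0.37, 0.94 ± 0.37 and 0.99 ± 0.37 (adjusted p = 0.983, 0.258 and 0.108).

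The type IV class had 6 of 6 positive changes at 2 weeks (median 0.56) and 3 of 6 at both later weeks, with 0 called. COL4A2 had 875, 825, 886 and 755 CPM at 2 weeks, above the control valves at 614, 492, 415 and 463 CPM (0.74 ± 0.20, adjusted p = 0.0826). At 4 weeks it gave 0.54 ± 0.20 (adjusted p = 0.209) and at 7 weeks 0.61 ± 0.20 (adjusted p = 0.0691). COL4A1 gave 0.71 ± 0.26, 0.49 ± 0.26 and 0.51 ± 0.26 at 2, 4 and 7 weeks (adjusted p = 0.18, 0.477 and 0.235). COL15A1 had 544, 670, 648 and 462 CPM at 2 weeks, against 466, 285, 325 and 281 CPM in control valves (0.76 ± 0.27, adjusted p = 0.167), with lower fitted changes later (0.57 ± 0.27 and 0.33 ± 0.27, adjusted p = 0.399 and 0.467). COL18A1 gave 0.38 ± 0.40, 0.78 ± 0.40 and 0.47 ± 0.40 (adjusted p = 0.715, 0.452 and 0.476). Without 7-week replicate 2, COL6A1 (1.02), COL4A2 (0.74, adjusted p = 0.0402) and COL27A1 (0.68, adjusted p = 0.0469) were called at 7 weeks and COL21A1 was not.

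FACITs had 8 of 9 positive changes at 2 weeks (median 0.52), 5 at 4 weeks (0.06) and 3 at 7 weeks (-0.16). COL21A1, a FACIT of vessel walls, was the collagen called lower at 7 weeks. It had 88.9, 26.7, 64.4 and 35.6 CPM at 7 weeks, against 119, 102, 83.5 and 82.1 CPM in control valves. Replicate 1 lay within the controls and the others below them (-0.91 ± 0.26, adjusted p = 0.0438). The call was lost on leaving out any library of either group except 7-week replicate 1 (adjusted p = 0.0589 to 0.126), and smooth muscle markers were called lower for 5 of 8 genes in the same comparison, and their part in the result was not tested. With the mean log2 level (of CPM plus 1) of the cardiomyocyte markers as a covariate both 7-week calls, COL6A1 and COL21A1, stayed called. COL12A1 gave 0.70 ± 0.45, 0.31 ± 0.45 and 0.01 ± 0.45 at 2, 4 and 7 weeks (adjusted p = 0.49, 0.854 and 0.989), and COL14A1 0.53 ± 0.22, -0.04 ± 0.21 and -0.40 ± 0.22 (adjusted p = 0.225, 0.972 and 0.261). COL9A1, a type IX chain at under 5 CPM, gave 1.76 ± 1.07, 2.93 ± 1.05 and 1.60 ± 1.07 (adjusted p = 0.454, 0.196 and 0.364). Of the network collagens, COL8A1 had 298, 85.6, 122 and 205 CPM at 7 weeks, against 139, 63.0, 58.3 and 67.4 CPM in control valves (1.05 ± 0.38, adjusted p = 0.0925). Without control replicate 1 COL8A1 was called at 7 weeks (1.38, adjusted p = 0.0434). Its changes at 2 and 4 weeks were 0.51 ± 0.37 and 0.48 ± 0.37 (adjusted p = 0.56 and 0.679). COL8A2 gave 0.40 ± 0.26, 0.47 ± 0.26 and -0.05 ± 0.26 (adjusted p = 0.497, 0.505 and 0.928), and COL10A1 0.35 ± 0.49, -0.35 ± 0.50 and -0.14 ± 0.50 (adjusted p = 0.795, 0.85 and 0.882).

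**Figure D3:**
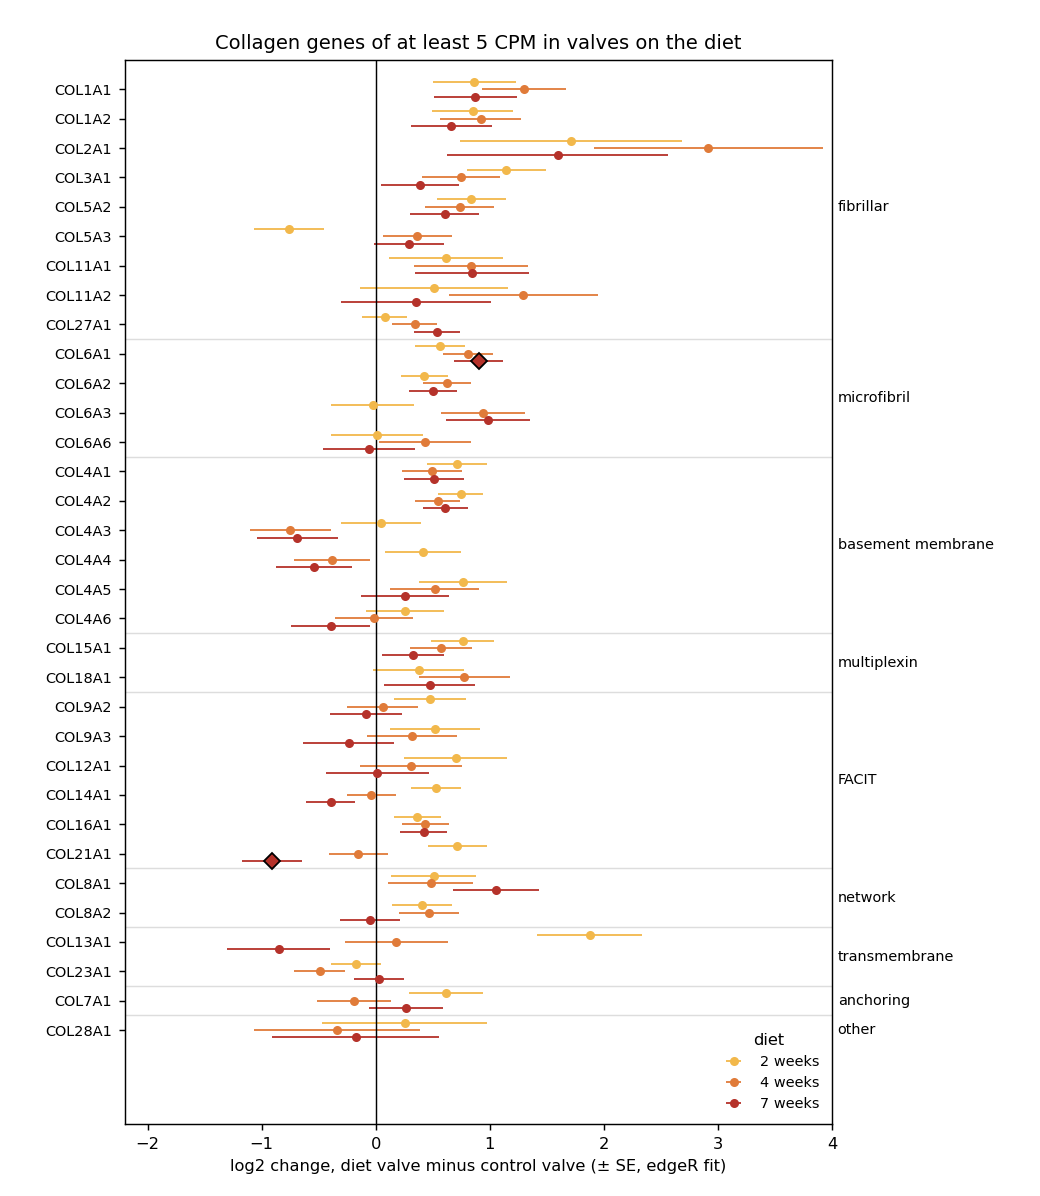
Log2 change of diet minus control valve at 2 weeks (yellow), 4 weeks (orange) and 7 weeks (dark red) for the 33 collagens of at least 5 CPM in some group, with standard errors, grouped by class; diamonds mark an adjusted p under 0.05. Only COL6A1 (0.90) and COL21A1 (-0.91), both at 7 weeks, carry a diamond, and most fibrillar and type VI points lie to the right of 0.

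Between weeks, the largest set of collagen calls was 7 against 2 weeks, with 2 higher and 4 lower of 38, where 26.7% of all genes were called (14.5% higher, 12.2% lower). The share of collagens called was below that of all genes. The 4 lower genes were COL13A1, COL14A1, COL21A1 and COL4A4, and the 2 higher ones COL5A3 and COL24A1. Cell markers moved in the same comparison: smooth muscle markers were lower for 7 of 8 genes and higher for 1, cardiomyocyte markers were higher for 8 of 9 and macrophage markers for 10 of 10. With the cardiomyocyte markers' mean log2 level (of CPM plus 1) as a covariate 0 collagens were called. The share of all genes called with this covariate is not given here, so the loss cannot be read as particular to collagens. Cardiomyocyte marker shares of counts did not overlap between these weeks (0.0987% to 0.564% at 2 weeks, 0.864% to 4.01% at 7 weeks). Covariate and week are therefore poorly separated in this fit. The directions of all 6 collagens stayed the same with the covariate, with adjusted p between 0.0657 and 0.205.

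COL13A1 had 90.1, 85, 49.9 and 40.5 CPM at 7 weeks, against 458, 207, 711 and 367 CPM at 2 weeks and 144, 118, 93.4 and 128 CPM in control valves. The 2-week valves were all above the controls and the 7-week valves all below them. The 7 minus 2 week difference was -2.73 ± 0.48 (adjusted p = 0.00179), and the changes against control were 1.87 ± 0.46 at 2 weeks (adjusted p = 0.0713), 0.18 at 4 weeks (adjusted p = 0.923) and -0.85 ± 0.45 at 7 weeks (adjusted p = 0.25). At 4 weeks it had 46.5, 135, 235 and 202 CPM and was lower than at 2 weeks (-1.69 ± 0.46, adjusted p = 0.0493), the 1 collagen called between these weeks, where 4.36% of all genes were called (3.14% higher, 1.23% lower). That call was lost without 4-week replicate 1, 2 or 3 or 2-week replicate 1, 3 or 4 (adjusted p = 0.0627 to 0.174). Without 4-week replicate 4 the count was 3, with COL21A1 and COL5A3 added, and without 2-week replicate 2 it was 3, with COL24A1 and COL5A3 added.

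COL21A1 had 88.9, 26.7, 64.4 and 35.6 CPM at 7 weeks, against 130, 188, 189 and 131 CPM at 2 weeks. The groups did not overlap, as for 7.46% of all genes in this direction, and the difference was -1.63 ± 0.26 (adjusted p = 0.00127). COL14A1 had 735, 267, 633 and 665 CPM at 7 weeks, against 844, 1350, 1126 and 932 CPM at 2 weeks, again with no overlap (-0.92 ± 0.22, adjusted p = 0.00786). COL24A1, a fibrillar collagen first described in bone and cornea, was near the limit of detection but separated, with 1.17, 0.591, 1.26 and 1.03 CPM at 7 weeks, against 0.310, 0.531, 0.0652 and 0.150 CPM at 2 weeks (1.95 ± 0.46, adjusted p = 0.00821). These 4 genes, COL13A1 included, were called whichever of the 8 libraries was left out. COL24A1 is among the genes that the authors took out as myocardial in their other valve table.

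COL5A3 had 94.7, 29.3, 53.1 and 64.8 CPM at 7 weeks, against 23.1, 50.2, 12.7 and 30.5 CPM at 2 weeks (1.05 ± 0.31, adjusted p = 0.0229), with overlap. It was lost without 7-week replicate 1 or 4 or 2-week replicate 1 or 3 (adjusted p = 0.0513 to 0.0648). COL4A4 had 9.65, 3.43, 7.62 and 9.15 CPM at 7 weeks, against 7.82, 27, 9.85 and 13.8 CPM at 2 weeks (-0.96 ± 0.33, adjusted p = 0.0452). It was lost without 7-week replicate 2, 3 or 4 or 2-week replicate 2, 3 or 4 (adjusted p = 0.0533 to 0.184), and its difference was -0.56 without 2-week replicate 2. Leaving out single libraries moved the count of 6 to between 4 and 9; the 9 came without 7-week replicate 1, with COL3A1 (-0.99, adjusted p = 0.0462) and COL4A5 and COL4A6 (-1.06 each) among them. Between 7 and 4 weeks edgeR and DESeq2 called 0 collagens, where edgeR called 0.1% and DESeq2 1.3% of all genes; 3 collagens and 1921 genes had an unadjusted p under 0.05.

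**Figure D4:**
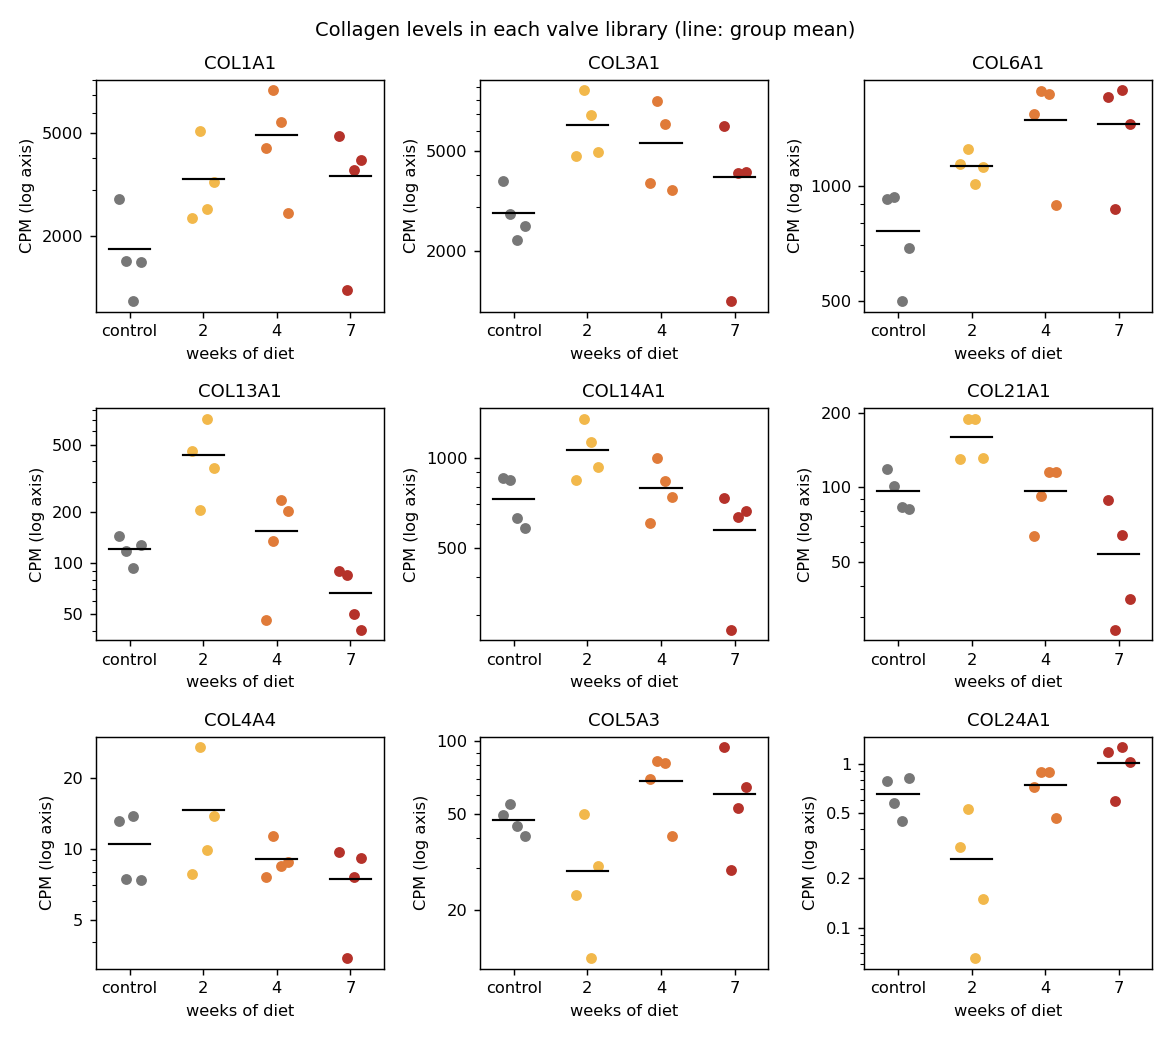
CPM (log axis) of 9 collagens in each valve library, by weeks of diet with controls at the left of each panel; the line is the group mean (n = 4). COL13A1, COL14A1 and COL21A1 are highest at 2 weeks and lowest at 7 weeks, COL24A1 is lowest at 2 weeks, and 7-week replicate 2 is the low point of its group for COL1A1, COL3A1 and COL6A1.

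Chains of 1 trimer, and the main type I and III chains, were also compared as ratios of their counts within each library, which removes the library total. The ratio of COL1A1 to COL1A2 averaged 1.00 ± 0.043 in the controls and 1.02 ± 0.12, 1.3 ± 0.099 and 1.18 ± 0.11 after 2, 4 and 7 weeks of diet (SD, n = 4 each). At 4 weeks the valves ran from 1.2 to 1.42 and at 7 weeks from 1.08 to 1.31, above the control range of 0.966 to 1.05. COL6A1 to COL6A2 averaged 0.665 ± 0.018 at 7 weeks, against 0.503 ± 0.029 in control valves, and COL1A1 to COL3A1 averaged 0.897 ± 0.089 at 7 weeks, against 0.610 ± 0.096 in control valves, both with no overlap. Each of these 4 comparisons gave p = 0.0286 in an exact two-sided permutation test, the smallest that 4 against 4 libraries can give. Over the 18 tests made (6 ratios at 3 weeks) 0 passed Benjamini-Hochberg adjustment, and the lowest adjusted value was 0.129.

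In aorta 0 of 36 collagens were called between diet and control, where 0.159% of all genes were called (0.132% higher, 0.0277% lower). An unadjusted p under 0.05 was found for 13 of the 36 collagens and 1768 genes (12.2% of all genes tested). DESeq2 called 5 collagens, COL6A3, COL28A1, COL13A1, COL4A2 and COL2A1, and 2.83% of all genes. The 2 diet aortas lay close together, and theirs was the smallest difference of any pair of libraries within a group, though above sampling noise. Cardiomyocyte markers averaged 0.0989% of counts in diet aortas, against 0.0385% in control aortas, and 2 of 9 were called higher. Atrial muscle markers took 0.0103% to 0.0112% of counts in diet aortas, against at most 0.000199% in control aortas, and 3 of 4 were called higher. The part of either in the values that follow was not tested. In 11 collagens both diet aortas were above all 3 controls, as in 13.3% of all genes, and in 7 both were below, as in 20.5%. The median change was 0.24, against -0.025 over all genes.

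COL6A3 had 421 and 419 CPM in diet aortas, against 183, 257 and 172 CPM in control aortas (1.09 ± 0.18, adjusted p = 0.105). COL28A1, a short collagen related to type VI and known from nerve, had 22.7 and 21.6 CPM in diet aortas, against 3.91, 1.3 and 4.86 CPM in control aortas (2.78 ± 0.48, adjusted p = 0.115). COL13A1 had 548 and 537 CPM in diet aortas, against 394, 348 and 304 CPM in control aortas (0.69 ± 0.14, adjusted p = 0.158). In all 3 genes the diet aortas were above every control. Without control replicate 2, the control with the highest level of 6 of the 10 fibrillar collagens, edgeR called 4 collagens: COL6A3 (1.27, adjusted p = 0.0189), COL28A1 (2.36, adjusted p = 0.0216), COL15A1 (0.94, adjusted p = 0.0333) and COL18A1 (0.65, adjusted p = 0.046).

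COL2A1 had 0.0639 and 0.382 CPM in diet aortas, against 0.695, 14.1 and 15 CPM in control aortas (-5.38 ± 1.51, adjusted p = 0.28). The cartilage network chain COL10A1 had 0 and 2 counts in the diet aortas, against 11, 54 and 6 in the control aortas, and was not called (adjusted p = 0.295). The diet to control ratio of the sums was 0.0359 (95% exact interval 0.00427 to 0.135, for counting error only), or 0.0895 (0.01 to 0.377) without control replicate 2 and 0.0717 (0.00851 to 0.269) without diet replicate 1. Without diet replicate 2 no diet count was left. Chondrocyte markers (6 of 7 in the tables) took 0.0156% to 0.0161% of counts in diet aortas, against 0.0187% to 0.0330% in control aortas, with 0 of 4 tested called; their part in these values was not tested. Of the type I and III chains, COL1A1 had 1811 and 1786 CPM in diet aortas, against 1335, 1524 and 901 CPM in control aortas (0.58 ± 0.22, adjusted p = 0.379), both above the controls, while the diet aortas lay within the control range for COL3A1 (0.33 ± 0.22, adjusted p = 0.564). COL1A2 gave 0.24 ± 0.26 (adjusted p = 0.725) and COL5A2 0.37 ± 0.15 (adjusted p = 0.393). The basement membrane group had COL4A1 at 0.47 ± 0.15 (adjusted p = 0.314), COL4A2 at 0.43 ± 0.13 (adjusted p = 0.287), COL15A1 at 0.72 ± 0.21 (adjusted p = 0.295) and COL18A1 at 0.35 ± 0.26 (adjusted p = 0.591).

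Type VI chains COL6A1 (0.33 ± 0.17, adjusted p = 0.493) and COL6A2 (0.41 ± 0.16, adjusted p = 0.4) had positive fitted changes in aorta that were not called. Also not called were COL8A1 (-0.66 ± 0.54, adjusted p = 0.631), COL8A2 (0.24 ± 0.11, adjusted p = 0.439), COL11A1 (-1.71 ± 0.92, adjusted p = 0.504), COL12A1 (-0.04 ± 0.48, adjusted p = 0.978) and COL14A1 (0.38 ± 0.24, adjusted p = 0.552). Tested directly, the diet effect in valve, averaged over the 3 durations, differed from that in aorta for 0 of 40 collagens, where 0.0175% of all genes were called (0.0117% higher, 0.00583% lower). An unadjusted p under 0.05 was found for 6 of the 40 collagens and 1416 genes (8.25% of all genes tested). DESeq2 called 1 collagen and 0.39% of all genes.

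In myocardium most collagens had lower fitted levels on the diet, but edgeR called 0 of 32, where 0.0848% of all genes were called. At an unadjusted p under 0.05 there were 11 of the 32 collagens and 1252 genes, 8.85% of all genes tested. DESeq2 called 5 collagens lower, COL3A1, COL15A1, COL5A3, COL4A5 and COL1A2, and 2.18% of all genes. Fitted changes were negative for 25 of 32, with a median of -0.54 against -0.010 over all genes. The fibrillar class had 0 of 9 positive (median -1.17), type IV 0 of 6 (median -0.72) and type VI 0 of 4 (median -0.65). In 13 collagens every diet library lay below every control, as in 11.4% of all genes, and in COL14A1 every diet library lay above, as in 3.74%. No marker of cardiomyocytes, atrial or smooth muscle, macrophages or fibroblasts was called in either direction in this comparison. The summed shares of some still lay apart. Atrial muscle markers took 0.00126% to 0.0128% of counts in diet myocardium, against 0.000188% to 0.000322% in control myocardium. Smooth muscle markers took 0.287% to 0.327% in diet myocardium, against 0.229% to 0.243% in control myocardium, though the median log2 change of the 8 genes was -0.52. Their part in the collagen values was not tested.

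COL3A1 had 146, 292 and 181 CPM in diet myocardium, against 709, 907 and 911 CPM in control myocardium. The groups were far apart (-1.93 ± 0.28, adjusted p = 0.0798). COL15A1, the multiplexin of muscle basement membrane, had 81.6, 150 and 71.2 CPM in diet myocardium, against 341, 305 and 358 CPM in control myocardium (-1.62 ± 0.28, adjusted p = 0.107). COL5A3 had 23.4, 39.9 and 32.1 CPM in diet myocardium, against 77.8, 69.1 and 107 CPM in control myocardium (-1.29 ± 0.21, adjusted p = 0.107). With no low-count filter these 3 genes were called, COL3A1 with an adjusted p of 0.0198, COL5A3 of 0.0331 and COL15A1 of 0.036.

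The type I chains had smaller fitted changes than COL3A1. COL1A1 had 175, 456 and 316 CPM in diet myocardium, against 384, 443 and 397 CPM in control myocardium, with overlap (-0.29 ± 0.30, adjusted p = 0.912). COL1A2 had 93.2, 219 and 136 CPM in diet myocardium, below 283, 311 and 360 CPM in control myocardium (-0.99 ± 0.27, adjusted p = 0.281). The ratio of COL1A1 to COL3A1 counts was 1.2 to 1.75 in diet myocardium, against 0.435 to 0.542 in control myocardium; 3 against 3 libraries were not tested. Also not called were COL5A2 (-0.25 ± 0.23, adjusted p = 0.883), COL11A1 (-1.38 ± 0.87, adjusted p = 0.776), COL4A1 (-0.41 ± 0.24, adjusted p = 0.749), COL4A2 (-0.40 ± 0.20, adjusted p = 0.669) and COL18A1 (0.74 ± 0.48, adjusted p = 0.784).

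Type VI chains COL6A1 (-0.53 ± 0.23, adjusted p = 0.565), COL6A2 (-0.61 ± 0.26, adjusted p = 0.565) and COL6A3 (-0.68 ± 0.37, adjusted p = 0.693) shared the sign of COL3A1. Among the fibril surface and network collagens the sign was mixed. COL14A1 had 57.8, 97.5 and 69.1 CPM in diet myocardium, against 54.2, 51.3 and 40.2 CPM in control myocardium (0.72 ± 0.24, adjusted p = 0.391). COL12A1 had 1.44, 13.1 and 14.5 CPM in diet myocardium, against 2.15, 3.69 and 1.82 CPM in control myocardium, so replicate 1 lay below every control and the other 2 above them (1.96 ± 0.71, adjusted p = 0.429). COL8A1 (-0.05 ± 0.32, adjusted p = 0.99) and COL8A2 (0.54 ± 0.40, adjusted p = 0.836) were not called.

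The diet effect in 7-week valve and in myocardium, measured in part in the same animals, was compared in 1 fit over all tissues. Of 40 collagens 3 differed, all in the direction of a higher change in valve, where 0.624% of all genes were called in that direction and 0.95% in all. COL3A1 gave 2.30 ± 0.48 (adjusted p = 0.0219), COL15A1 1.94 ± 0.41 (adjusted p = 0.0231) and COL6A1 1.41 ± 0.32 (adjusted p = 0.0301). COL3A1 and COL15A1 were called in neither tissue alone, with values of 0.39 and 0.33 in 7-week valve and -1.93 and -1.62 in myocardium. Leaving out diet myocardium replicate 3 lost all 3 calls (COL3A1 adjusted p = 0.0862, COL15A1 0.0923, COL6A1 0.102), and leaving out control myocardium replicate 3 left COL3A1 alone. COL15A1 was also lost without control valve replicate 2 (0.0522). COL6A1 was lost in 7 of 14 such fits, those without 7-week replicate 3 or 4, control valve replicate 3 or 4, control myocardium replicate 3, or diet myocardium replicate 2 or 3 (adjusted p = 0.0516 to 0.102). Without 7-week valve replicate 2 the count was 6, with COL1A2, COL4A2 and COL27A1 added.

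**Figure D5:**
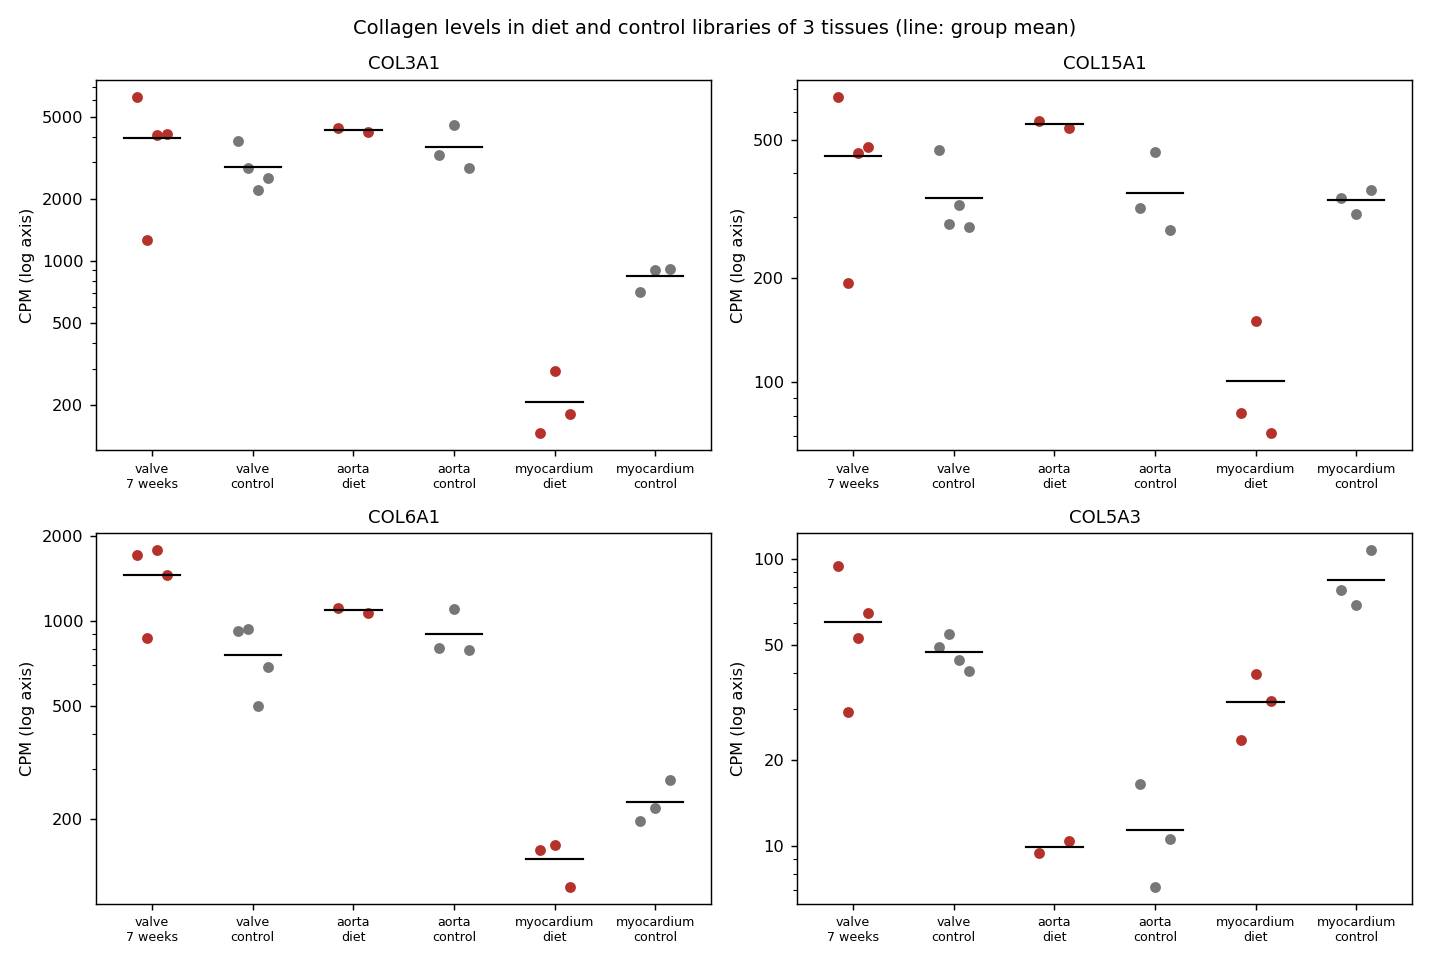
CPM (log axis) of COL3A1, COL15A1, COL6A1 and COL5A3 in each library of 7-week valve, aorta and myocardium, with diet (red) left of control (grey) for each tissue; the line is the group mean. In myocardium the diet libraries lie below the controls for all 4 genes (COL3A1 146 to 292 CPM against 709 to 911 CPM), while in valve and aorta the diet means are level with or above the control means except for COL5A3 in aorta.

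Genes that act on collagen were taken from a list of 58 (hydroxylation, folding and export, processing, crosslinking, receptors, cleavage), of which 53 were in the tables and 51 could be tested in valve. At 2 weeks edgeR called 0 (26 had an unadjusted p under 0.05 and DESeq2 called 10), at 4 weeks 1 higher and at 7 weeks 8 higher and 2 lower. Over all genes edgeR called 0.025%, 2% and 7.79% at these weeks. At 2 weeks 16.4% of all genes had an unadjusted p under 0.05 and DESeq2 called 6.04%. The collagenases MMP13 and MMP1 had the largest changes at 7 weeks. MMP13 had 16.6, 0.946, 10.2 and 1.64 CPM at 7 weeks, against 0.0712, 0, 0.148 and 0 CPM in control valves. That is 444 against 3 counts, a ratio of 148 (95% exact interval 50.4 to 722 for counting error only, adjusted p = 0.00633). Of these, 255 counts were in 7-week replicate 1 and 2 of the 3 in control replicate 3, and the ratio was 87.2 (29.4 to 427) without that 7-week library and 336 (60.1 to 13319) without that control. MMP1 had 19.2, 2.36, 4.37 and 3.15 CPM at 7 weeks, against 0.641, 0.0640, 0.0740 and 0 CPM in control valves (5.05 ± 1.18, adjusted p = 0.0198). Every 7-week valve was above every control for both genes, though the MMP1 call was lost without control replicate 2, 3 or 4 (adjusted p = 0.0532 to 0.0668). In the same comparison macrophage markers were higher for 9 of 10 genes, and their part in these changes was not tested.

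MMP14, P4HA3, LOXL4 and PCOLCE2 were also called at 7 weeks. MMP14, a membrane-bound collagenase, rose by 1.33 ± 0.29 (adjusted p = 0.0143; 0.0535 without control replicate 3). P4HA3, a prolyl 4-hydroxylase subunit, had 14.2, 13.8, 18.0 and 25 CPM at 7 weeks, against 7.83, 2.82, 3.04 and 4.71 CPM in control valves. It rose by 1.94 ± 0.48 (adjusted p = 0.0264), and the call was lost without any 1 of control replicates 2, 3 and 4 or 7-week replicate 4 (0.057 to 0.0819) or with the replicate block (0.077). LOXL4, a lysyl oxidase relative, rose at 4 weeks (1.2 ± 0.27, adjusted p = 0.0323) and at 7 weeks (1.15 ± 0.27, adjusted p = 0.0189). The 4-week call was lost without any 1 of control replicates 2, 3 and 4 or 4-week replicates 1, 2 and 3 (0.0593 to 0.133). It was also lost with only the groups compared (0.105), the cardiomyocyte covariate (0.0979) or the replicate block (0.0696). The 7-week call was lost without any 1 of control replicates 2, 3 and 4 or 7-week replicate 4 (0.0508 to 0.064). PCOLCE2, an enhancer of procollagen trimming, fell by 0.71 on the log2 scale at 7 weeks (adjusted p = 0.0174), and was lost without 7-week replicate 4 or control replicate 2 (0.0515 to 0.054) or with only the groups compared (0.0547).

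Between 7 and 2 weeks 6 of the 51 genes were higher and 14 lower, where 14.5% of all genes were higher and 12.2% lower. LOX, the main lysyl oxidase, had 185, 48.7, 83.1 and 69.8 CPM at 7 weeks, against 301, 326, 592 and 266 CPM at 2 weeks (-2.03 ± 0.35, adjusted p = 0.0016). ITGB1, the beta subunit of collagen-binding integrins, was lower at 7 weeks (-1.38 ± 0.24, adjusted p = 0.00171), as was CREB3L2, a transcription factor of the secretory pathway (-1.64 ± 0.42, adjusted p = 0.0125). MMP13 was higher (4.91 ± 0.94, adjusted p = 0.0029). These 4 were called whichever library was left out, while with the cardiomyocyte covariate LOX, ITGB1 and CREB3L2 had adjusted p-values of 0.115, 0.127 and 0.305. MMP1 (3.52 ± 1.04, adjusted p = 0.0228) was lost without 7-week replicate 1 or 2-week replicate 1 or 3 (0.0528 to 0.0657), with the covariate (0.0887) or with the replicate block (0.0571). ADAMTS14, a procollagen N-proteinase (1.47 ± 0.49, adjusted p = 0.0385), was lost without 7-week replicate 2 or 4 or 2-week replicate 2, 3 or 4 (0.0522 to 0.108), with no filter (0.0607), the covariate (0.269) or the block (0.0554). Between 4 and 2 weeks ITGB1 (-0.95 ± 0.24, adjusted p = 0.0367) and PCOLCE2 (-0.59 ± 0.16, adjusted p = 0.0493) were lower. ITGB1 was lost there without 4-week replicate 1, 2 or 3 or 2-week replicate 1 or 3 (0.0578 to 0.132), and PCOLCE2 without any library except 4-week replicate 4 (0.0572 to 0.167). Both were also lost with no filter, only the groups compared, the covariate or the block, at 0.0552 to 0.259 for ITGB1 and 0.0921 to 0.232 for PCOLCE2.

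In aorta 1 gene of the list was called. ITGA11, the integrin alpha 11 receptor for fibrillar collagen, had 6.46 and 5.54 CPM in diet aortas, against 42.5, 39.7 and 29.1 CPM in control aortas (-2.57 ± 0.20, adjusted p = 0.0228). The call was lost without control replicate 1 (-2.48, adjusted p = 0.102), diet replicate 1 (-2.68, adjusted p = 0.323) or diet replicate 2 (-2.47, adjusted p = 0.456). Leaving out a diet aorta leaves 1, which is then assumed to vary as the controls do. The same gene differed between the diet effects in valve and aorta (2.40 ± 0.40, adjusted p = 0.0227), and was lost there without control valve replicate 1, 3 or 4, control aorta replicate 1 or 2, or either diet aorta (0.0518 to 0.487). In these groups 1 animal gave both a 2-week valve and a diet aorta. With the animal as a random block, fitted in limma and so by another test, the difference was not called (2.29, adjusted p = 0.0787). In myocardium edgeR called 0 of 49, where 10 had an unadjusted p under 0.05 and DESeq2 called 4. Over all genes the shares there were 0.0848%, 8.85% and 2.18%, in the same order. The diet effect in 7-week valve differed from that in myocardium for PLOD1, a lysyl hydroxylase (1.12 ± 0.20, adjusted p = 0.00928), PCOLCE2 (-2.02 ± 0.24, adjusted p = 0.000373) and PCOLCE (2.18 ± 0.50, adjusted p = 0.0348). PCOLCE was lost there in 7 fits, those without 7-week replicate 3 or 4, control valve replicate 2 or 3, control myocardium replicate 3, or diet myocardium replicate 2 or 3 (0.0575 to 0.118).

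Between control tissues 35 genes of the list were higher and 2 lower in valve than in myocardium, and 8 were higher and 6 lower in valve than in aorta, of 49 tested. Over all genes 46% were called against myocardium and 22.2% against aorta. P4HA3 had the largest difference in both, 6.95 ± 0.84 against myocardium (adjusted p = 0.000164) and 3.31 ± 0.58 against aorta (adjusted p = 0.00454). PCOLCE2 differed by 5.11 ± 0.24 between valve and myocardium (adjusted p = 1.7e-06) and LOX by 3.85 ± 0.30 (adjusted p = 1.2e-05). PCOLCE, the other procollagen trimming enhancer, had 173, 200, 119 and 191 CPM in control valves, against 44.3, 64.8 and 39.2 CPM in control aortas (1.65 ± 0.23, adjusted p = 0.00174).

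In all, 10 collagens stayed under 5 CPM in every group: COL6A5, COL9A1, COL10A1, COL17A1, COL19A1, COL20A1, COL22A1, COL24A1, COL25A1 and COL26A1. COL26A1 had group means of at most 0.162 CPM and no count in any aorta. COL9A1 had no count in any myocardium or diet aorta and its highest mean, 2.19 ± 0.54 CPM, in 4-week valves, with 0.252 ± 0.34 CPM in control valves. COL17A1, a collagen of epithelial junctions, had a mean of 0.521 ± 0.19 CPM in 7-week valves and 0.0701 ± 0.058 CPM in control valves, and was not tested there.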

How the data were processed

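The 27 libraries were made with a directional kit and sequenced single-end, per the labels' protocols. The authors deposited RSEM expected counts per gene, 1 table each for valve, aorta and myocardium, plus a valve table from which 346 of 31346 genes (1.10%) named as myocardial had been removed, which served as an alternative. The submitters' processing notes name STAR 2.7.8a and RSEM 1.3.3, with edgeR 3.42.4, FastQC 0.11.9 and Trim Galore 0.6.6 beside them. Not given in the sources used here: the genome build, the annotation and the strand setting of the counting. RSEM shares reads that fit several genes between them, so 10.1% of valve values, 9.39% of aorta values and 9.54% of myocardium values were not whole, and expected counts were rounded before testing.

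Tests used edgeR 4.0.16 in R 4.3.3 (quasi-likelihood, TMM normalisation, low-count filter with a minimum count of 10 and a total of 15) over all genes, with Benjamini-Hochberg adjustment and a threshold of 0.05. The 4 valve groups shared 1 fit, aorta and myocardium had 1 each, the control tissues 1, and the comparisons of diet effects 1 over all tissues. DESeq2 1.42.0, limma 3.58.1 for the animal block, no filter, only the groups compared, a cardiomyocyte covariate, a replicate block and leaving out each library were alternatives. Tests were checked on simulated data for 4 comparisons. Of 100 genes changed 2-fold, edgeR recovered 32 at 2 weeks in valve, 23 in aorta, 6 in myocardium and 25 between control valve and aorta. Of 100 genes changed 4-fold it recovered 85, 75, 75 and 75, so a gene that was not called can still differ 2-fold or more. Members and gene lists were chosen with earlier results of these data known. Changes with p-values are given for 19 collagens fixed by name and for called members, up to 10 for each comparison by size of change; other called genes that act on collagen were named up to 6 for each comparison. Intervals from counts cover counting error only, and leaving out libraries from those ratios was added after seeing the data. Library pairs within a group all differed by more than sampling noise, so each library counted as 1 replicate.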

Additional observations from a re-analysis of the deposited data

Results flagged for a closer look

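Some single libraries stood far from the rest of their group of 4 by Dixon's 95% criterion, which chance meets in about 1 group in 20; 7 of 136 groups checked met it. Replicate 4 at 2 weeks had 753 CPM of COL4A1, against 1035 to 1091 CPM in the other 3. Replicate 4 at 4 weeks had 1763 CPM of COL6A2 and 363 CPM of COL6A3, below the others of that week. Control valve replicate 1 was high for COL8A1 (139 CPM) and COL11A1 (22.4 CPM), and replicate 2 at 4 weeks was high for COL11A1 (29.1 CPM). COL28A1 had 13.1 CPM in 7-week replicate 1, against at most 1.94 CPM in the other 3.

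Differences between durations, tested as such with edgeR, were called for COL13A1 between 4 and 2 weeks (-1.69 on the log2 scale) and for 6 collagens between 7 and 2 weeks: COL13A1 (-2.73), COL21A1 (-1.63), COL14A1 (-0.92), COL4A4 (-0.96), COL24A1 (1.95) and COL5A3 (1.05). The diet effect in 7-week valve differed from that in myocardium for COL3A1 (2.30), COL15A1 (1.94) and COL6A1 (1.41).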

How the results depend on the processing

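The number of collagens called depended on the test. With DESeq2 it was 3 at 2 weeks, 3 at 4 weeks, 4 at 7 weeks, 3 between 4 and 2 weeks, 5 in aorta, 5 in myocardium, 9 for 7-week valve against myocardium effects and 1 for valve against aorta effects. Over all genes tested DESeq2 called 6.04%, 4.83%, 13.9%, 9.43%, 2.83%, 2.18%, 3.44% and 0.39% in these comparisons, in the same order. With only the groups compared the number of collagens called was 2 at 2 weeks, 0 at 7 weeks, 0 between 4 and 2 weeks and 3 between 7 and 2 weeks. With no low-count filter it was 2 between 4 and 2 weeks and 3 in myocardium. With the cardiomyocyte covariate it was 0 between 4 and 2 weeks and 0 between 7 and 2 weeks, and with the animal as a random block 9 for 7-week valve against myocardium effects. For the settings other than DESeq2, and for leaving out libraries below, the share of all genes called is not given here. Whether these counts are particular to collagens was therefore not assessed. With muscle markers taken out of the total, collagens took 0.473% of counts in control myocardium, against 0.429%.

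Same-numbered libraries did not deviate together (29 pairs, r from -0.53 to 0.25, 4 above 0.1), so the numbers do not pair them. The replicate block gave 1 call at 7 weeks, 0 between 4 and 2 weeks and 2 in aorta, and turned the sign of COL10A1 (-0.062) and COL6A3 (0.090) at 2 weeks and of COL12A1 at 7 weeks (-0.040). COL12A1 at 7 weeks was -0.0013 with no filter, and at 2 weeks the covariate gave COL18A1 -0.22, COL6A2 -0.018 and COL8A2 -0.027.

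Leaving out 1 library gave 0 to 3 calls at 4 weeks, 0 to 3 at 7 weeks, 0 to 3 between 4 and 2 weeks, 4 to 9 between 7 and 2 weeks, 0 to 4 in aorta, 7 to 10 for valve against aorta and 0 to 6 for 7-week valve against myocardium effects. Signs varied for uncalled changes. In aorta COL12A1 ran from -0.41 to 0.36, and in myocardium COL8A1 from -0.43 to 0.22. For valve against aorta COL10A1 ran from -0.19 to 1.42, COL14A1 from -0.052 to 0.41, COL15A1 from -0.33 to 0.071, COL1A2 from -0.059 to 0.45 and COL8A2 from -0.054 to 0.30. At 2 weeks COL10A1 ran from -0.38 to 0.68 and COL6A3 from -0.35 to 0.17, at 4 weeks COL14A1 from -0.14 to 0.048, and at 7 weeks COL10A1 from -0.33 to 0.20, COL12A1 from -0.19 to 0.22 and COL8A2 from -0.30 to 0.19. Among the single values, differences of chain ratios were marked as the same if they moved by less than the larger group SD, whatever their sign. Of 2505 single values, 2273 were the same, which for log2 changes of genes means direction and side of the threshold kept. Another 171 were weaker, 28 stronger and 33 reversed, with 0 reversals among the 72 called results. The cause of these changes was not tested. Chain ratios gave 0 calls under every alternative, where a few ratios at the smallest possible p could not pass the adjustment over 18 tests. The small groups, 2 diet aortas above all, and low counts limit the members under 5 CPM.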
